A study of Mus musculus with 18 samples.

Results

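Matrix proteases and their inhibitors were followed in fat cells floated from bone marrow and from epididymal fat of ageing male mice. The set is the genes whose symbols begin with Mmp, Adamts or Timp followed by a number, without Mmp8 and Mmp9, as named alone by a probe set of the Affymetrix mouse array. It holds 42 genes (20 Mmp, 18 Adamts and 4 Timp) of the 19938 genes named alone on the array. A gene with several probe sets was represented by the one with the highest mean over all arrays.

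The mice were C57BL/6J males of 6, 14 and 18 months on standard chow, without any genetic change or treatment. Bone marrow was flushed from femurs and tibias, its red cells were lysed, and the floating cells were taken. Epididymal fat, which the labels call peripheral, was instead dispersed with collagenase type I before flotation, so depot and isolation method cannot be told apart. Each of the 6 groups had 3 arrays, each of pooled RNA, with 6 to 10 mice to a group. Both depots were taken from the same mice, but the labels do not tie a bone marrow pool to an epididymal pool, and the arrays were fitted without a block. The cells were not sorted.

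The deposited values are on a log2 scale after background correction and quantile normalization. A difference of 1 on this scale is a 2-fold difference. Each array's median lay between 5.33 and 5.65, and a value below it is called dim here. The 3 lowest medians (5.33 to 5.39) were those of the epididymal arrays of 18 months. All adjusted p-values below come from limma with Benjamini-Hochberg adjustment over the 23410 probe sets that name a gene. Between depots a gene was called with an adjusted p under 0.05 and a difference of at least 2-fold. Between ages a gene was called with an adjusted p under 0.05 alone. Values with ± are a mean with its SD (n = 3 arrays) or, for a difference, the difference with its standard error.

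The Mmp enzymes are zinc endopeptidases that cut collagens, gelatin, elastin and other matrix proteins, some secreted as inactive precursors and some held on the cell membrane. The Adamts enzymes are secreted relatives that cut proteoglycans such as versican and aggrecan, trim procollagens or act on other matrix and plasma proteins. The Timp proteins bind the active site of these enzymes and block it. Fat cells sit in a collagen-rich basement membrane, and matrix proteolysis accompanies the growth of fat tissue. A textbook complex forms at the cell surface, where Mmp14 (MT1-MMP) binds Timp2, and the pair captures and activates the precursor of the gelatinase Mmp2.

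Promoter sequences from RefSeq (mouse build GRCm38.p6, 250 bases before to 50 after an annotated start) were found for 29 of the 42 genes. The other 13 were Adamts4 to Adamts8, Adamts10, Adamts15, Adamts16, Adamts19, Mmp2, Mmp16, Mmp17 and Mmp19. On chromosome 9, 9 of the set lie in an uninterrupted run of 10 protein-coding genes, in the order Mmp13, Mmp12, Mmp1b, Mmp3, Mmp1a, Mmp10, Mmp8, Mmp27, Mmp20 and Mmp7. The AP-1 letters TGAGTCA or TGACTCA (the same site read on either strand) were found at 7 of the 11 annotated starts of these 9 genes. They were found at 0 of the 21 starts of the 20 other genes, and at 5.20% of 32851 mouse promoters. The TATA letters TATAAA or TTTATA stood at 8 of the 11 starts on chromosome 9 and at 2 of the 21 elsewhere, against 13.6% of all promoters. The letters of a GC box, GGGCGG or CCGCCC, stood at 0 of the 11 and at 16 of the 21, against 35.7% of all promoters. The starts in the run belong to neighbouring genes of the same family and may be related copies, which the shares of all promoters do not take into account. A letter match describes the sequence and does not show that a factor binds there.

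The AP-1 stretches of the 7 chromosome 9 genes are shown because these letters were found in the run and at no other start of the set; the TATA and GC box letters separated the run from the rest as well. Each is given 5′ to 3′ on the gene's strand, with the AP-1 letters in capitals, and positions count back from the annotated start. Mmp13 (chr9:7272452-7272512, plus strand) has its match at -35 and Mmp12 (chr9:7347303-7347363, plus strand) at -44. Mmp1b (chr9:7388086-7388146, minus strand) has it at -93 and Mmp3 (chr9:7445749-7445809, plus strand) at -46. Mmp1a (chr9:7464041-7464101, plus strand) has it at -73. Mmp10 (chr9:7502252-7502312, plus strand) and Mmp7 (chr9:7692000-7692060, plus strand) both have it at -63.
Mmp13: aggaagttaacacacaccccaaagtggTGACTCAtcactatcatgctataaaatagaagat
Mmp12: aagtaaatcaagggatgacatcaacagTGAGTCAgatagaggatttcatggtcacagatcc
Mmp1b: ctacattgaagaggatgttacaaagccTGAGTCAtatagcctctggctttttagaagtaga
Mmp3: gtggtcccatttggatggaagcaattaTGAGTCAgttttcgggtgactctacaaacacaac
Mmp1a: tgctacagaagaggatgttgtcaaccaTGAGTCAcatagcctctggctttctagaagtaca
Mmp10: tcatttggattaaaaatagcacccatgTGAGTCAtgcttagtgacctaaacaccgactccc
Mmp7: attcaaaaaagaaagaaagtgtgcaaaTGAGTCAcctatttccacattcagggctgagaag

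The 250 bases before the start of Mmp14 (chr14:54431348-54431597, plus strand) and of Timp2 (chr11:118355412-118355661, minus strand) are shown as the 2 available promoters of the Mmp14, Timp2 and Mmp2 trio, whose epididymal values moved together as described below. Capitals mark the GC box letters. Both windows lack the AP-1 and TATA letters.
Mmp14: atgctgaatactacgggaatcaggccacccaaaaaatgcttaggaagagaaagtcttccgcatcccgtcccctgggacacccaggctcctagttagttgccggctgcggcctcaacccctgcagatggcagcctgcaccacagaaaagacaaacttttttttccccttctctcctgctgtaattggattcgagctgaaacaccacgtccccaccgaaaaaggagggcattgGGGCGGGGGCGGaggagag
Timp2: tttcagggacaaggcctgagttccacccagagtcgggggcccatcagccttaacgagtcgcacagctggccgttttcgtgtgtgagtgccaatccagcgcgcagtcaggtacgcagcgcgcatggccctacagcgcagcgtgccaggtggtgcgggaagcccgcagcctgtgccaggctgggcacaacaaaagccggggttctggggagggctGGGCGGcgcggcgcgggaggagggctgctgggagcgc

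The preparations were checked against cell markers. The 12 adipocyte markers measured had an array mean of 6.79 to 7.44 in bone marrow and 11.88 to 12.37 in epididymal cells, and all 12 were called lower in bone marrow. Lep was dim in bone marrow at all ages and Cidec at 14 and 18 months. The 14 neutrophil markers lay at 11.48 to 12.04 in bone marrow and at 5.38 to 8.70 in epididymal cells, and all 14 were called higher in bone marrow. Array means of 7 erythroid markers were 10.19 to 11.35 and 5.72 to 7.50 in the same order. Those of 8 megakaryocyte markers were 8.09 to 9.85 and 5.37 to 6.72. Fibroblast, mesothelial, endothelial and mural marker means were lower in bone marrow at each age. In such bulk samples, fewer cells of a type and less RNA per cell cannot be told apart. Epididymal array 1 at 6 months stood apart with a neutrophil mean of 8.70, and bone marrow array 1 at 6 months lay farthest from its group, with correlations down to 0.973.

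Of the 42 genes, 27 were called in at least 1 of the 10 depot and age contrasts described below. The share of all probe sets called in at least 1 contrast was not counted. On all 18 arrays, 12 of the genes were dim. The dim genes were Mmp1a, Mmp1b, Mmp7, Mmp16, Mmp20, Mmp21, Mmp27, Adamts13, Adamts16, Adamts18, Adamts19 and Adamts20. Another 8 lay above the array median on every array, namely Mmp14, Mmp19, Adamts7, Adamts9, Adamts10, Adamts17, Timp2 and Timp3. In the chromosome 9 run, Mmp3 and Mmp10 passed the median on 1 array each, Mmp13 on 10 and Mmp12 on 15. The depots did not overlap for 12 genes, with 10 lower and 2 higher in bone marrow. How many of all probe sets lacked overlap was not counted, so these numbers are not set against a background.

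**Figure D1:**
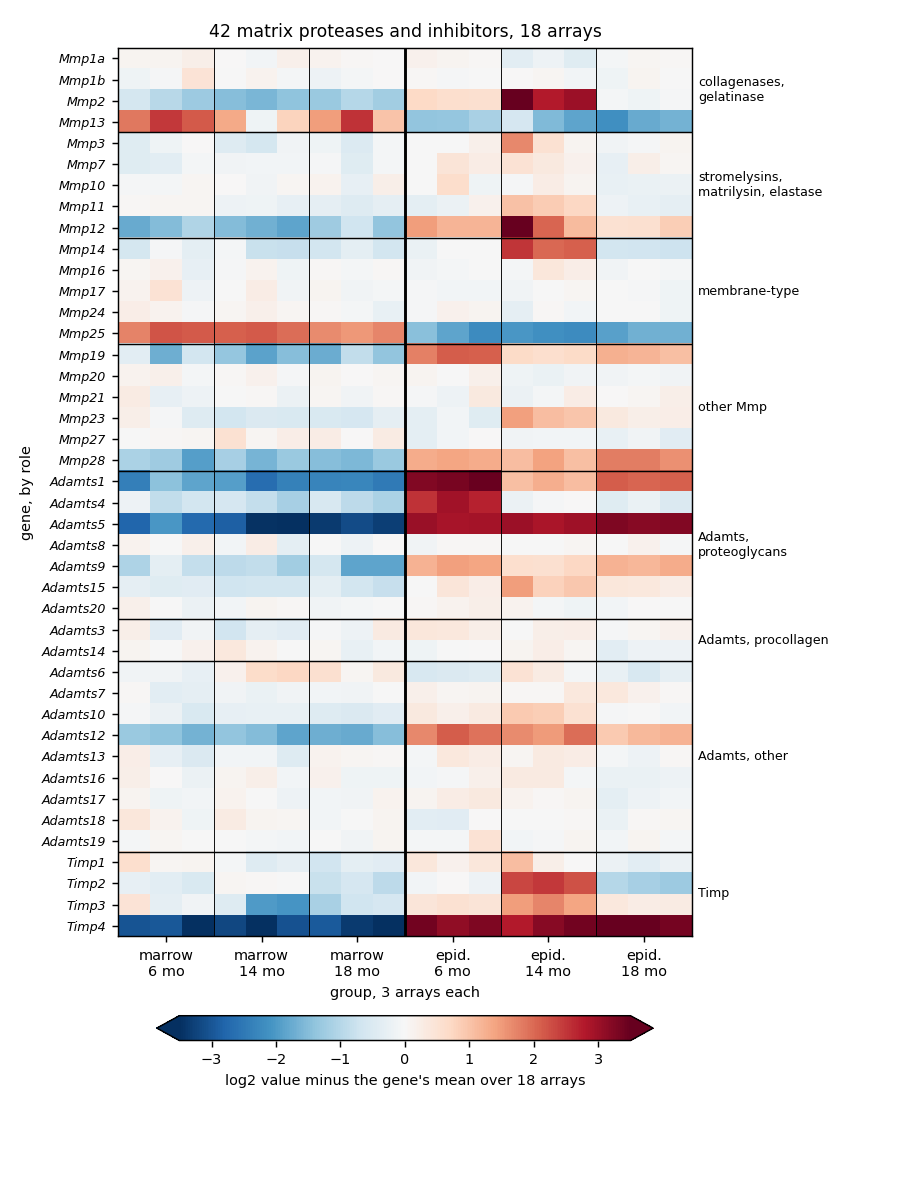
Each row is 1 of the 42 genes, sorted by role, and each column 1 of 18 arrays, 3 per group; colour is the log2 value minus the gene's mean over the 18 arrays, and arrowheads on the colour bar mark values beyond its ends. Timp4, Adamts5 and Adamts1 are blue in all 9 bone marrow arrays and red in all 9 epididymal arrays, and Mmp2, Mmp14 and Timp2 are darkest in the 3 epididymal arrays of 14 months.

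The depots differed mainly by lower proteoglycan-cutting Adamts genes, Timp4 and several Mmp genes in bone marrow. Over the 3 ages, 12 of the 42 genes were called lower and 2 higher in bone marrow. Over all probe sets, 11.6% were called lower and 10.2% higher (21.8% in either direction). The median difference was -0.31 over the 42 genes and -0.02 over all probe sets. At the single ages 10, 17 and 10 genes were lower at 6, 14 and 18 months, and the same 2 genes, Mmp13 and Mmp25, were higher each time. Mmp3, Mmp11, Mmp14, Mmp23, Adamts10 and Timp2 were called lower at 14 months but at no other age and not over the ages. With arrays centred on their medians, the 14-month differences of Mmp3, Mmp11 (-0.91) and Adamts10 (-0.88) lay under the 2-fold limit. With arrays set to equal ribosomal protein genes, which moves the median of all probe sets by -0.73, 22 of the 42 were lower and 2 higher over the ages (27.4% and 5.16% of all probe sets). The backgrounds in either direction at the single ages were 23.1%, 21.4% and 23.8%.

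**Figure D2:**
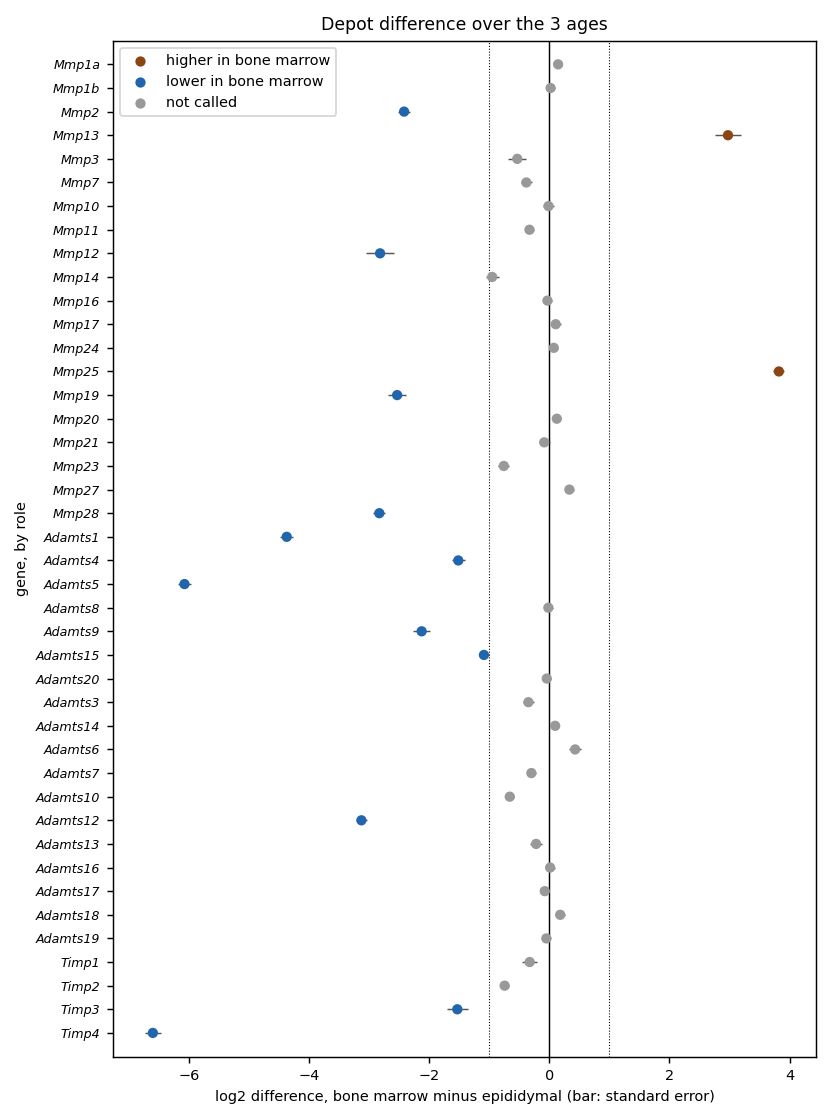
Points are the log2 difference of bone marrow minus epididymal cells over the 3 ages for each of the 42 genes, bars are the standard error, and dotted lines mark a 2-fold difference. Timp4 (-6.60) and Adamts5 (-6.07) lie farthest to the left and Mmp25 (3.82) and Mmp13 (2.97) to the right, while most genes lie within the dotted lines.

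Among collagenases and the gelatinase, Mmp13, the main fibrillar collagenase of the mouse, was higher in bone marrow. Its values there were 8.28, 8.92 and 8.58 at 6 months, 7.76, 6.30 and 7.21 at 14 months and 7.89, 8.98 and 7.44 at 18 months. In epididymal cells they were 5.05, 5.10 and 5.32, then 5.86, 4.91 and 4.60, then 4.31, 4.67 and 4.80. Every bone marrow array lay above every epididymal array, and the bone marrow arrays scattered widely at 14 and 18 months. The difference was 2.97 ± 0.21, or 7.86-fold (adjusted p = 2.76e-10). Mmp13 was dim on 8 of 9 epididymal arrays, and with dim values set to the array median it was 5.26-fold higher in bone marrow. Of 8 osteoblast markers, 2 were called higher and 1 lower in bone marrow, with array means of 5.57 to 6.44 there and 5.41 to 5.70 in epididymal cells, and of 10 marrow stroma markers 5 were higher and 1 lower. Their part in the Mmp13 difference was not tested.

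Mmp2, gelatinase A, which cuts denatured collagen and basement membrane collagen, was lower in bone marrow. It read 6.54, 6.19 and 5.88 at 6 months, 5.66, 5.54 and 5.75 at 14 months and 5.86, 6.15 and 5.92 at 18 months in bone marrow. Epididymal cells read 7.86, 7.73 and 7.72, 10.67, 9.94 and 10.15 and 7.09, 7.01 and 7.10 at the same ages. The depots did not overlap, and the epididymal arrays of 14 months were the highest. The difference over ages was -2.42 ± 0.097 (5.35-fold, adjusted p = 3.46e-14). The collagenase-like genes Mmp1a and Mmp1b were dim throughout, with differences of 0.15 and 0.02, and were not called.

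Of the stromelysins, matrilysin and elastase, Mmp12, the macrophage metalloelastase, was called over the ages. It read 5.39, 5.64 and 6.10, then 5.65, 5.47 and 5.30, then 5.91, 6.46 and 5.77 in bone marrow at the 3 ages. In epididymal cells it read 8.61, 8.35 and 8.34, then 10.88, 9.19 and 8.27, then 7.69, 7.70 and 8.03. The depots did not overlap, and array 1 of the 14-month epididymal group was the highest of all. Mmp12 was 7.05-fold lower in bone marrow (-2.82 ± 0.23, adjusted p = 2.03e-09). It was dim on 3 of 9 bone marrow arrays, and 6.71-fold lower there with dim values set to the array median. Among the macrophage and monocyte markers (12 measured), 8 were called higher and 1 lower in bone marrow over the ages, but 2 higher and 3 lower at 14 months. Their array means at 14 months were 8.81 to 9.30 in bone marrow and 9.09 to 9.56 in epididymal cells, where array 1, the highest for Mmp12, also had the highest macrophage mean. The part of these cells in the Mmp12 difference was not tested. The other 4 genes of this role, Mmp3, Mmp7, Mmp10 and Mmp11, differed by -0.53 to -0.01 over the ages, below the 2-fold limit. At 14 months Mmp11 (-1.08) and Mmp3 (-1.17) were called lower in bone marrow, Mmp3 not without epididymal array 1 of 14 months (-0.71).

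Mmp25 (leukolysin, MT6-MMP), a membrane-anchored protease known from neutrophils, was the other gene called higher in bone marrow. Bone marrow arrays read 9.32, 9.79 and 9.74 at 6 months, 9.68, 9.73 and 9.54 at 14 months and 9.23, 9.10 and 9.30 at 18 months. Epididymal arrays read 6.12, 5.73 and 5.37, then 5.55, 5.43 and 5.37, then 5.67, 5.91 and 5.89. The gap between the lowest bone marrow and the highest epididymal array was wide, and the highest epididymal array was array 1 of 6 months, the one with the high neutrophil mean. The difference was 3.82 ± 0.092 (14.1-fold, adjusted p = 2.07e-17). Mmp25 was dim on 4 of 9 epididymal arrays, and with dim values set to the array median it was 13.3-fold higher in bone marrow. All 14 neutrophil markers were also higher in bone marrow, by a median of 5.66, and their part in the result was not tested.

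The other membrane-type genes were not called over the ages. Mmp14 differed by -0.95 ± 0.11 (adjusted p = 2.21e-07), just under the 2-fold limit. Its depots overlapped at 6 and 18 months, and at 14 months it was called lower in bone marrow by -2.74 ± 0.19 (adjusted p = 3.89e-10). Mmp16, Mmp17 and Mmp24 differed by -0.03, 0.11 and 0.07.

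Of the other Mmp genes, Mmp28 (epilysin) and Mmp19 were lower in bone marrow. Mmp28 ranged from 5.12 to 5.94 in bone marrow and from 8.10 to 8.84 in epididymal cells, a difference of -2.83 ± 0.10 (7.12-fold, adjusted p = 6.64e-15). Mmp19 ranged from 5.81 to 7.31 and from 8.26 to 9.79, a difference of -2.53 ± 0.15 (5.79-fold, adjusted p = 1.29e-11). Neither gene's depots overlapped. Mmp28 was dim on 4 of 9 bone marrow arrays, and 6.75-fold lower there with dim values set to the array median. Mmp20, the enamel protease, and Mmp21 and Mmp27 were dim on all arrays, and Mmp23 differed by -0.76 over the ages and was called at 14 months (-1.73).

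The proteoglycan-cutting Adamts genes made up the largest group called over the ages, with 5 of 7 lower in bone marrow. Of these, Adamts1, Adamts5 and Adamts9 were called lower at every age, Adamts4 only at 6 months and Adamts15 only at 14 months. Adamts5, the main aggrecanase of mouse cartilage, read 6.14, 6.87 and 6.20, then 6.04, 5.45 and 5.19, then 5.54, 5.79 and 5.62 in bone marrow at the 3 ages. In epididymal cells it read 11.93, 11.79 and 11.82, then 11.92, 11.77 and 11.88, then 12.17, 12.08 and 12.15. The epididymal arrays of all ages lay close together and far above bone marrow. The difference was -6.07 ± 0.11, or 67.4-fold (adjusted p = 3.13e-19). Adamts5 was dim on 3 of 9 bone marrow arrays, and 64.7-fold lower there with dim values set to the array median.

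Adamts1, which cuts versican and aggrecan, read 5.41, 6.35 and 5.95 at 6 months, 5.87, 5.14 and 5.44 at 14 months and 5.48, 5.51 and 5.32 at 18 months in bone marrow. Its epididymal values were 11.04, 11.13 and 11.26, 8.85, 9.06 and 8.88 and 9.91, 9.84 and 9.89. No array of either depot reached the other, and the epididymal values fell into 3 separate ages. Adamts1 was 20.7-fold lower in bone marrow (-4.37 ± 0.11, adjusted p = 3.65e-17). It was dim on 5 of 9 bone marrow arrays, and 18.9-fold lower there with dim values set to the array median. Adamts9, a versican-cutting relative, was 4.37-fold lower (-2.13 ± 0.14, adjusted p = 7.54e-11), and its 6 probe sets were all called lower, by -3.53 to -1.74.

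Adamts4, the other aggrecanase, was lower by -1.52 ± 0.11 over the ages (2.86-fold, adjusted p = 1.48e-10), but it differed at 6 months (-3.30) far more than at 14 (-0.78) or 18 months (-0.47). It was dim on 5 of 9 bone marrow arrays, and 2.63-fold lower there with dim values set to the array median. Adamts15 was lower by -1.09 ± 0.09, and without the 14-month groups the difference was -0.76 and was not called. It was dim on all 9 bone marrow arrays and on 3 epididymal arrays. With dim bone marrow values set to the array median, Adamts15 was only 1.07-fold lower there. Adamts8 and Adamts20 differed by -0.02 and -0.04 and were not called.

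Adamts12, which cuts cartilage oligomeric matrix protein, was the only gene called over the ages among the 9 remaining Adamts genes. Its values ranged from 4.69 to 5.26 in bone marrow and from 7.46 to 8.67 in epididymal cells without overlap (-3.13 ± 0.09, adjusted p = 2.53e-16). Adamts12 was dim on all 9 bone marrow arrays and at least 5.80-fold lower there, taking dim values at the array median. The others in this role, among them Adamts13, which cuts von Willebrand factor, differed by -0.66 (Adamts10) to 0.43 (Adamts6) over the ages, and Adamts10 was called at 14 months (-1.04), though not without epididymal array 1 (-0.97) or array 2 of that age. The procollagen-trimming genes Adamts3 and Adamts14 differed by -0.35 and 0.10.

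Among the inhibitors, Timp4, known from fat and heart, showed the largest depot difference of the set. In bone marrow it read 5.20, 5.26 and 4.52, then 5.03, 4.70 and 5.17, then 5.29, 4.86 and 4.28 at the 3 ages, and so was dim on every array. In epididymal cells it read 11.60, 11.34 and 11.48, then 11.01, 11.40 and 11.61, then 11.99, 11.73 and 11.56. The difference was -6.60 ± 0.13 (adjusted p = 1.81e-18), with no overlap and no call between ages in either depot. With dim values taken at the array median, Timp4 was at least 61.9-fold lower in bone marrow. All 12 adipocyte markers were lower in bone marrow too, by a median of -4.89, and their part in the result was not tested.

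Timp3, which stays bound to the matrix and also blocks Adamts enzymes, was lower in bone marrow by -1.53 ± 0.17 (2.89-fold, adjusted p = 2.04e-07), with overlapping arrays. Over 6 and 18 months alone its difference was -0.79 and was not called. Timp2 and Timp1 differed by -0.74 ± 0.066 and -0.33 ± 0.12 over the ages, below the 2-fold limit. At 14 months Timp2 was called lower in bone marrow by -2.32 ± 0.11 (adjusted p = 3.43e-12).

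Other genes of matrix proteolysis differed by depot in both directions. Of 7 plasminogen system genes measured, 2 were higher (Plaur, the urokinase receptor, by 3.41 ± 0.088, and Serpinb2, a urokinase inhibitor, by 1.71 ± 0.17) and 2 lower in bone marrow, among them Plat, tissue plasminogen activator, by -1.73 ± 0.12. Of 17 cathepsins and cystatins, 5 were higher and 3 lower. The cathepsins Ctse and Ctsg and the cystatin Cst7 were higher by 6.30 ± 0.27, 5.02 ± 0.18 and 3.31 ± 0.15. Ctsg is also one of the neutrophil markers described above. Of 16 other metzincins, 3 were higher and 5 lower, with Adam8, a leukocyte protease, at 3.55 ± 0.15, Adam9 at -2.10 ± 0.087 and Adam23 at -2.98 ± 0.076.

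Activators, inhibitors outside the Timp family and substrates were lower wherever they were called, with 1 exception among the substrates. Of 16 activators and such inhibitors, 6 were lower in bone marrow. The procollagen enhancer Pcolce2 differed by -4.70 ± 0.094, the proprotein convertase Pcsk6 by -2.76 ± 0.10 and the clearance receptor Lrp1 by -2.18 ± 0.078. Of 5 Adamts-like genes, which lack the protease domain, 2 were lower, Adamtsl4 by -1.50 ± 0.094 and Adamtsl2 by -1.33 ± 0.082. Of 29 matrix substrates, 21 were lower and 1 higher in bone marrow, with a median of -2.91. Nidogen 1 (Nid1), laminin alpha 4 (Lama4) and decorin (Dcn) differed by -5.23 ± 0.096, -5.14 ± 0.095 and -4.79 ± 0.13.

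In epididymal cells the set changed most at 14 months, where the Mmp2, Mmp14 and Timp2 trio had the largest rises and Adamts4 the largest fall. From 6 to 14 months 9 genes rose and 4 fell, where 10.2% of all probe sets rose and 7.51% fell. With arrays centred on their medians 9 rose and 6 fell (7.74% and 15.1% of all probe sets), and with ribosomal protein genes set equal 6 rose and 9 fell (4.65% and 25.2%). Mmp2 went from 7.86, 7.73 and 7.72 to 10.67, 9.94 and 10.15, a rise of 2.48 ± 0.17 (5.58-fold, adjusted p = 6.75e-09). Timp2, the inhibitor of the activation complex, went from 9.17, 9.27 and 9.09 to 11.61, 11.73 and 11.49, a rise of 2.43 ± 0.11 (5.41-fold, adjusted p = 5.78e-11). Mmp14, the membrane protease of the complex, went from 7.50, 7.74 and 7.72 to 10.25, 9.74 and 9.83, a rise of 2.29 ± 0.19 (4.88-fold, adjusted p = 6.04e-08). No 14-month array of these 3 genes overlapped a 6-month array.

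All 3 then fell back below their 6-month values at 18 months. The 18-month arrays read 7.09, 7.01 and 7.10 for Mmp2, a change of -0.71 ± 0.17 from 6 months (adjusted p = 0.0075). They read 8.27, 8.09 and 8.0 for Timp2 (-1.06 ± 0.11, adjusted p = 4.23e-06). They read 7.09, 7.07 and 7.01 for Mmp14 (-0.59 ± 0.19, adjusted p = 0.0377), a call lost when any array but epididymal array 1 of 6 months is left out of the compared groups. From 14 to 18 months the falls were -3.49 for Timp2, -3.19 for Mmp2 and -2.88 for Mmp14 (adjusted p = 3.70e-13, 1.34e-10 and 2.00e-09).

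The other rises from 6 to 14 months were Mmp23 (1.45), Timp3 (1.05), Mmp11 (1.01), Adamts15 (0.86), Adamts6 (0.75) and Adamts10 (0.50). Timp3 was not called without epididymal array 1 or 3 of 6 months or array 2 of 14 months, and Adamts10 not without array 1 of 14 months. Mmp11, stromelysin 3, went from 5.44 to 5.94 at 6 months to 6.51 to 6.82 at 14 months and back to 5.48 to 5.61 at 18 months. Mmp12 did not pass the test (1.01 ± 0.40, adjusted p = 0.0968), its 14-month arrays reading 10.88, 9.19 and 8.27. Array 1 of that group was also the highest for Mmp3 (6.30) and Timp1 (6.92).

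**Figure D3:**
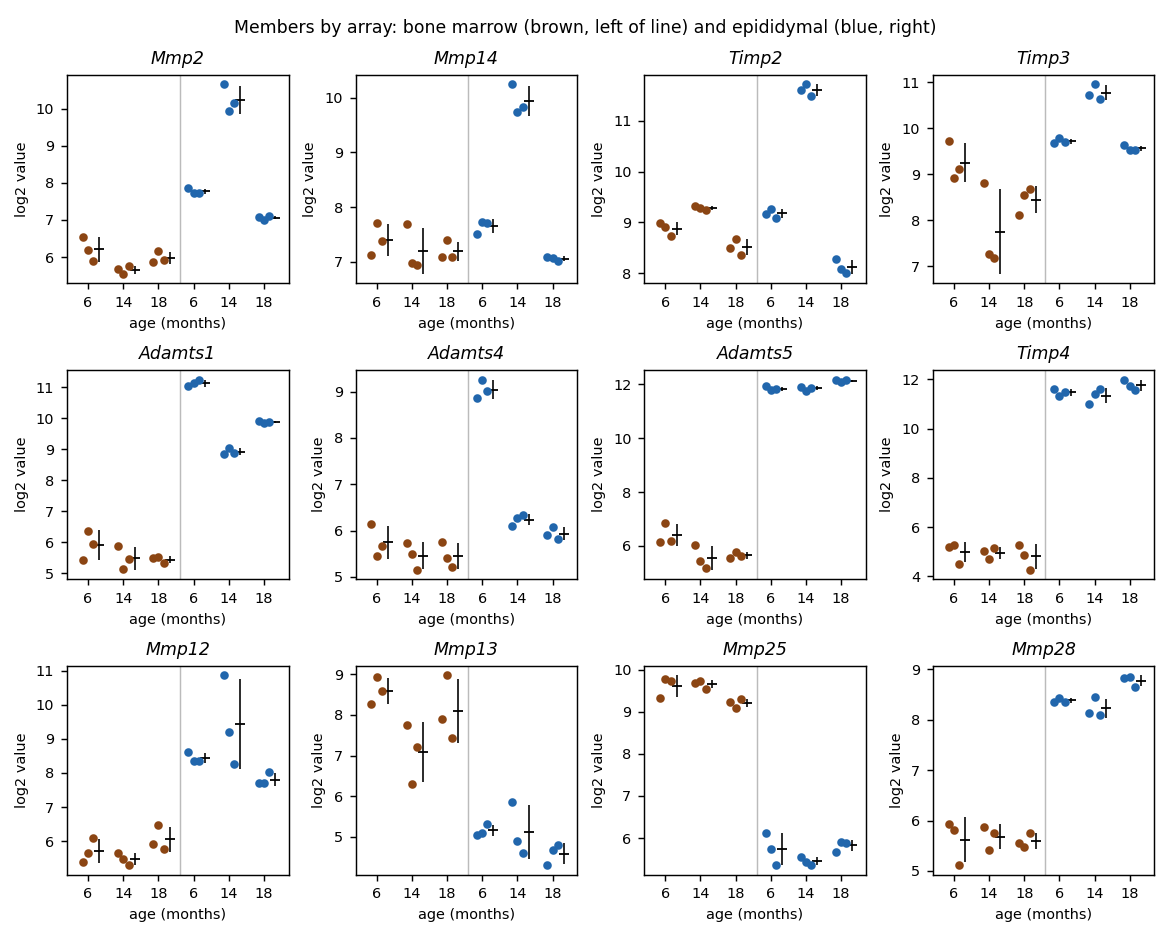
Points are log2 values of the 3 arrays per group against age for 12 genes, with bone marrow in brown and epididymal cells in blue, and black marks show the mean with its SD; each panel has its own vertical axis. Mmp2, Mmp14 and Timp2 peak in epididymal cells at 14 months, Adamts4 is high only in the 3 epididymal arrays of 6 months, and Timp4 and Adamts5 differ by depot at every age.

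The proteoglycanases Adamts4 and Adamts1 went the opposite way in epididymal cells. Adamts4 fell from 8.85, 9.26 and 9.02 at 6 months to 6.10, 6.28 and 6.33 at 14 months (-2.81 ± 0.18, 6.99-fold, adjusted p = 3.92e-09) and read 5.90, 6.08 and 5.81 at 18 months (-3.11 ± 0.18 from 6 months, adjusted p = 3.78e-09). Adamts1 fell from 11.04, 11.13 and 11.26 to 8.85, 9.06 and 8.88 (-2.21 ± 0.19, adjusted p = 1.06e-07) and stood between these at 18 months (9.91, 9.84 and 9.89, -1.26 ± 0.19 from 6 months, adjusted p = 1.61e-04). Mmp19 also fell at 14 months (-1.35), from 9.44 to 9.79 to 8.26 to 8.36, as did the dim Mmp1a (-0.41). The 6-month arrays were the highest of all 18 for Adamts1, Adamts4 and Mmp19.

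From 6 to 18 months 1 gene rose and 8 fell in epididymal cells, where 8.22% of all probe sets rose and 8.01% fell. Under the other scalings 0 to 2 rose and 7 to 8 fell, where 3.05% to 10.7% and 5.87% to 7.06% of all probe sets did. The rise was Mmp23 (0.55). Besides Adamts4, Adamts1, Timp2, Mmp2 and Mmp14, falls were called for Mmp19 (-0.83), Adamts12 (-0.81) and Adamts17 (-0.43). The count went from 9 to 5 without array 3 of 6 months and to 5 without array 1 of 18 months. From 14 to 18 months 3 genes rose and 15 fell, where 11.7% and 12.5% of all probe sets did (24.1% in all). Under the other scalings 4 to 6 rose and 9 to 11 fell, where 16.1% to 23.6% and 7.27% to 9.85% of all probe sets did. The rises were Adamts1 (0.95), Mmp28 (0.55) and Mmp1a (0.33). The falls ran from -3.49 (Timp2) to -0.38 (Adamts14). Timp1 (-0.69) and Mmp3 (-0.80) were not called without array 1 of 14 months, where they read highest.

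Markers of other cells moved with these changes. From 6 to 14 months in epididymal cells, 13 of 14 fibroblast and progenitor markers rose (array means from 8.25 to 8.38 to 9.71 to 10.04), and none fell. Of 12 macrophage and monocyte markers 10 rose, from 7.39 to 7.50 to 9.09 to 9.56. Of 12 endothelial markers 9 rose, from 8.02 to 8.13 to 8.88 to 9.06, and of 12 mesothelial markers 10 rose, from 6.65 to 6.67 to 7.61 to 7.88. At 18 months the same lists read 8.14 to 8.22, 6.30 to 6.35, 7.13 to 7.21 and 6.14 to 6.16. The fibroblast marker Pi16 was dim at 6 and 18 months, and the mesothelial marker Muc16 at all 3 ages. Adipocyte markers read 12.23 to 12.26, 11.88 to 12.11 and 12.30 to 12.37 at 6, 14 and 18 months, with 1 of 12 falling at 14 months. The part of these cells in the trio's changes was not tested.

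AP-1 factors, a list of 9 genes added after their values had been seen, fell from 6 to 14 months together with Adamts1 and Adamts4. Their array mean was 9.63 to 9.73 at 6 months, 7.12 to 7.62 at 14 months and 8.31 on every array at 18 months in epididymal cells. From 6 to 14 months 8 of the 9 fell, with Fosb at -4.18 and Fos at -3.54, and from 6 to 18 months 7 of the 9 fell. From 14 to 18 months 4 of the 9 rose, as did Adamts1, while Adamts4 differed by -0.31 and was not called. The promoter window of Adamts1 lacks the AP-1 letters, and no promoter was found for Adamts4. Among the genes with these letters, only the dim Mmp1a was called from 6 to 14 months in epididymal cells, as a fall. The part of these factors in the changes of the Adamts genes was not tested.

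**Figure D4:**
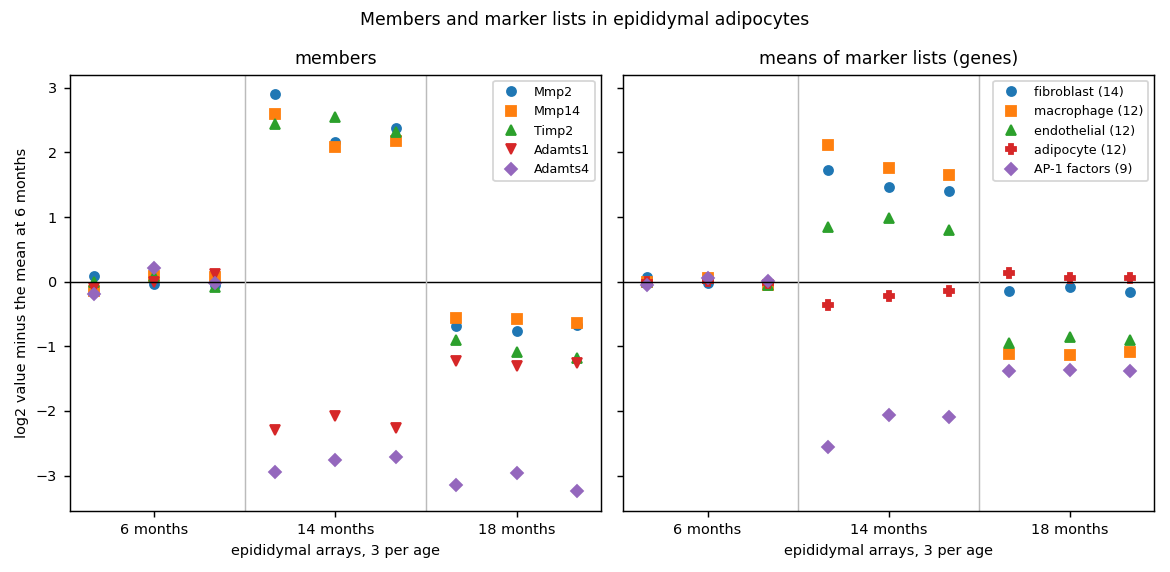
Points are the 9 epididymal arrays in order of age; the left panel plots log2 values of 5 genes and the right panel the mean log2 value of 5 marker lists (number of genes in brackets), all minus the mean of the 3 arrays of 6 months. Mmp2, Mmp14 and Timp2 and the fibroblast, macrophage and endothelial lists lie above 0 at 14 months, Adamts1, Adamts4 and the AP-1 factors lie below 0 at 14 and 18 months, and the adipocyte list stays near 0.

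In bone marrow few genes of the set were called by age, and the calls against 6 months were lost when only the compared groups were fitted. From 6 to 14 months 2 rose and 4 fell, where 5.08% of all probe sets rose and 3.58% fell (8.66% in all). Mmp13 changed by -1.50 ± 0.37 (adjusted p = 0.016), with values of 8.28, 8.92 and 8.58 and 7.76, 6.30 and 7.21 that did not overlap. Timp3 fell from 9.72, 8.93 and 9.12 to 8.81, 7.26 and 7.18 (-1.50 ± 0.30, adjusted p = 0.00401). Adamts5 (-0.84) and Mmp2 (-0.55) fell too, and Adamts6 (0.69) and Timp2 (0.41) rose. A limma fit of the compared groups alone called 0 of the 42 genes (lowest adjusted p = 0.0807), with 9 at an unadjusted p under 0.05. That fit takes its error from fewer arrays, and its share of all probe sets called is not given. Its count of 0 is therefore not set against a background.

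Single arrays also decided these calls. Mmp13 was not called without bone marrow array 2 of 6 months (-1.34) or array 2 of 14 months (-1.11). Adamts5 was not called without array 3 of 14 months, and Adamts6 not without array 2 or array 3 of 14 months. Timp2 was not called without array 3 of 6 months or without any 1 of the 3 arrays of 14 months. Mmp2 was called in 3 of the 18 fits that leave out 1 array, and Timp3 in all 18.

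From 6 to 18 months 3 genes fell in bone marrow and no other was called, where 3.37% of all probe sets rose and 5.13% fell. These were Adamts5 (-0.75 ± 0.19), Timp1 (-0.72 ± 0.21) and Mmp11 (-0.41 ± 0.12). Timp1 read 6.43, 5.92 and 5.95 at 6 months and 5.18, 5.51 and 5.45 at 18 months and was not called without array 1 of 6 months (-0.56). Of the 18 fits that leave out 1 array, Timp1 was called in 10, Mmp11 in 6 and Adamts5 in 15, and each lost its call without bone marrow array 1 or array 3 of 18 months. With the compared groups alone 0 of the 42 genes were called by limma, with 7 at an unadjusted p under 0.05. The share of all probe sets called in that fit is not given either. Without array 3 of 18 months 0 were called, with 8 at an unadjusted p under 0.05. From 14 to 18 months Adamts3 rose (0.50 ± 0.15, adjusted p = 0.0349) and Timp2 fell (-0.78 ± 0.11, adjusted p = 1.86e-04), where 4.75% and 8.23% did. Timp2 read 9.32, 9.29 and 9.25 at 14 months and 8.50, 8.68 and 8.36 at 18 months, without overlap. The Adamts3 rise was not called with its next brightest probe set (0.22).

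Markers of other cells moved in both directions in bone marrow. From 6 to 14 months 8 of 12 endothelial markers fell, with array means from 7.15 to 7.29 to 6.24 to 6.91, where Emcn and Tek were dim at 14 months. Of 10 marrow stroma markers 5 fell (7.90 to 8.0 to 6.96 to 7.79), of 8 osteoblast markers 2 fell (6.07 to 6.44 to 5.57 to 5.94), and of 29 matrix substrates 9 fell. Over the same interval 5 of 12 macrophage and monocyte markers (8.27 to 8.50 to 8.81 to 9.30), 7 of 11 B-lineage markers (7.67 to 7.91 to 8.59 to 8.89) and 3 of 9 T and NK cell markers rose. The part of these cells in the age changes of the set was not tested.

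The age changes differed between depots for 13 of the 42 genes by the F test of the interaction, where 20.4% of all probe sets did. Timp2 had the smallest adjusted p (4.17e-09), followed by Mmp2 (1.51e-08), Adamts4 (4.95e-07), Mmp14 (6.63e-07) and Mmp23 (1.58e-05). From 6 to 14 months Mmp2 changed by -0.55 in bone marrow and 2.48 in epididymal cells, and Mmp14 by -0.21 and 2.29. Timp3 changed by -1.50 and 1.05, in opposite directions. Timp2 rose in both depots, by 0.41 and 2.43. Adamts4 changed by -0.28 in bone marrow and -2.81 in epididymal cells, where it started from a higher value.

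**Figure D5:**
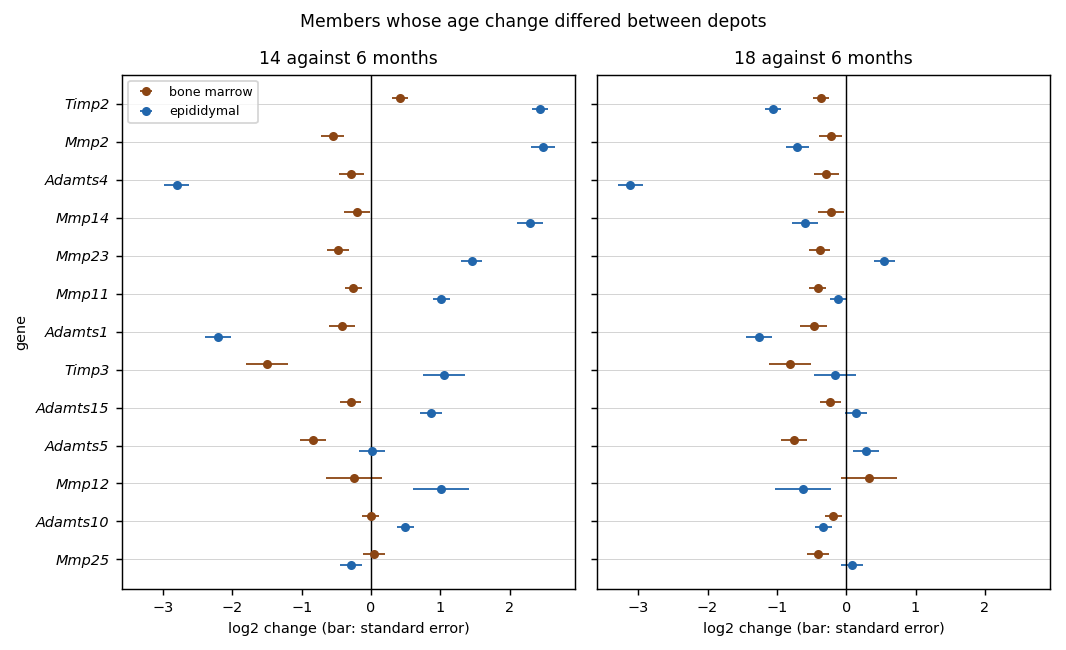
Points are log2 changes from 6 months to 14 months (left) and to 18 months (right) in bone marrow (brown) and epididymal cells (blue) for the 13 genes whose interaction passed the test, in order of its p, and bars are the standard error. At 14 months Timp2, Mmp2 and Mmp14 lie above 2 in epididymal cells only, and Adamts4 lies below -2 in epididymal cells at both ages.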

How the data were processed

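Total RNA pools were hybridised to Affymetrix whole-transcript arrays, 18 in all. The authors ran gcRMA background correction and quantile normalization in Partek, and the log2 values they deposited were analysed without further scaling. Raw scans were not used here. Genes were named from the platform annotation, and the symbols of all 42 genes matched RefSeq through their Entrez IDs. Of 35556 probe sets, 23410 name a gene and were tested.

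One linear model with a mean for each of the 6 groups was fitted over all 18 arrays (limma 3.58.1, R 4.3.3), giving depot contrasts, age contrasts in each depot and the interaction F test. P-values were adjusted by Benjamini-Hochberg within each contrast. The fit was run on simulated data with known changes and independent noise for each probe set. The simulation had no shift of whole arrays and no outlying array, so it checks the fit's code and not the calls above. Alternatives changed the probe sets, test, prior, weights, scaling, arrays, block and limits.

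The genes of the set, the marker and pathway lists and the tests were chosen with earlier results of these data known. Named genes were the Timp genes, the 10 largest depot differences in each direction, the 3 largest rises and falls per age contrast, the 5 smallest interaction p-values and 3 genes per pathway list; others named were chosen after their values were seen. Figures and sequence counts used Python 3.11.15. That an annotated start is the one used in these cells was not tested.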

Additional observations from a re-analysis of the deposited data

Results flagged for a closer look

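The age change differed between the depots, by limma's F test of the interaction, for 13 of the 42 genes, against 20.4% of all probe sets. Differences below are the log2 age change in bone marrow minus that in epididymal cells. The 3 genes of the Mmp2 activation complex had differences of -2.02 (Timp2), -3.03 (Mmp2) and -2.49 (Mmp14) from 6 to 14 months, and of 0.69, 0.48 and 0.38 from 6 to 18 months. Their adjusted p was 4.17e-09 for Timp2, 1.51e-08 for Mmp2 and 6.63e-07 for Mmp14. The fibroblast, macrophage and endothelial markers rose with them in epididymal cells at 14 months, and their part was not tested.

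Adamts4 (adjusted p = 4.95e-07) and Adamts1 (adjusted p = 3.32e-04) differed by 2.52 and 1.79 from 6 to 14 months and by 2.82 and 0.79 from 6 to 18 months. Both fell in epididymal cells, as did most AP-1 factors listed, a list added after their values had been seen. The promoter window of Adamts1 lacks the AP-1 letters, and none was found for Adamts4. The part of these factors was not tested.

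Of the remaining genes from 6 to 14 months, Mmp23 differed by -1.93 (adjusted p = 1.58e-05), Mmp11 by -1.27 (adjusted p = 6.81e-05) and Timp3 by -2.55 (adjusted p = 6.49e-04). Adamts15 differed by -1.16 (adjusted p = 0.00251), Adamts5 by -0.85 (adjusted p = 0.0162) and Mmp12 by -1.25 (adjusted p = 0.0257). Adamts10 differed by -0.50 (adjusted p = 0.0264) and Mmp25 by 0.33 (adjusted p = 0.0382). Leaving out single arrays gave 10 to 16 such genes.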

How the results depend on the processing

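Single calls were tried for the genes named by the rules above, which include pathway genes outside the set. None of these calls turned direction, and 208 of 5542 settings of single calls lost the call. Called genes of the set such as Mmp3, Adamts10 and Adamts15 were not among them. Many settings left out an array outside the compared groups. The share of lost calls therefore does not measure how firm the calls of the set are. The gene counts below are those of the set. Between depots over the ages, 14 genes were called, and 27 without the 2-fold limit (58.1% of all probe sets). With ribosomal protein genes set equal 24 were called, where 5.16% of all probe sets were higher and 27.4% lower. At 6 months 12 were called, and 27 with ribosomal protein genes set equal. That scaling called 4.89% of all probe sets higher and 45.4% lower at 6 months. Without the limit 19 were called at 6 months (46.3% of all). At 18 months 12 were called and 19 without the limit (47.1% of all). In bone marrow from 6 to 14 months the count of 6 went to 0 with the compared groups alone. With a 2-fold limit it went to 2 (1.37% of all probe sets). Leaving out single arrays gave 2 to 7 (2 without array 2 or array 3 of 14 months). From 6 to 18 months the count of 3 went to 1 with all probe sets of the table tested. It went to 0 with the compared groups alone. It went to 1 (a rise) with ribosomal protein genes set equal, where 5.37% of all probe sets rose and 1.48% fell. With a 2-fold limit it was 0 (1.03% of all). Without the 2 arrays that stood apart, an alternative chosen after seeing the data, it was 5. Leaving out single arrays gave 0 to 5 there (5 without bone marrow array 3 of 6 months, 1 without array 1 and 0 without array 3 of 18 months, and 1 without each epididymal array of 18 months). From 14 to 18 months the count of 2 went to 1 with all probe sets tested and with an ordinary analysis of variance. It was 1 with the next brightest probe set. It went to 4 with array weights, 4 with the compared groups alone and 0 with a 2-fold limit (1.96% of all). Leaving out single arrays gave 1 to 3 (1 without bone marrow array 3 of 14 months). In epididymal cells from 6 to 18 months the count of 9 went to 14 with array weights and 15 with the compared groups alone. It went to 3 with a 2-fold limit (2.40% of all). Leaving out single arrays gave 5 to 11 (5 without array 3 of 6 months or array 1 of 18 months). From 14 to 18 months the count of 18 went to 6 with a 2-fold limit (6.16% of all). For the other alternatives of this paragraph, such as array weights, the shares of all probe sets are not given. The causes were not tested, apart from the limits themselves.

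Scaling to ribosomal protein genes shifted the median difference of all tested probe sets by -0.73 between depots, -0.29 from 6 to 14 months and -0.11 from 6 to 18 months in epididymal cells, and by 0.18 from 14 to 18 months. In bone marrow it left 1 rise and 3 falls from 6 to 14 months, where 3.72% of all probe sets rose and 1.28% fell. A filter on dim probe sets kept 26 of the 42 genes. Over 9 pairs of arrays of the same replicate number and age the deviations correlated at -0.14 to 0.15, with 1 over 0.1. Such correlations between different tissues cannot show whether pools of the same number shared mice. With the replicate number as a block 14 genes were called between depots, 13 in epididymal cells from 6 to 14 months and 12 for the interaction. The shares of all probe sets with this block are not given. The 3 pools per group limit the precision, and changes of dim probe sets are compressed by the background.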

Other observations

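Of the 42 genes, 3 had several probe sets. The 16 probe sets of Adamts3 differed between depots by -0.35 to 0.32, with 1 passing an adjusted p of 0.05 as lower and 4 as higher in bone marrow. The 5 probe sets of Adamts17 differed by -0.33 to 0.11, with 1 passing as lower. The 6 probe sets of Adamts9 all passed as lower. A gene-level value of Adamts3 therefore depends on the probe set used.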
